A study of Danio rerio with 8 samples.

Results

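RNA sequencing compared control zebrafish embryos with embryos treated with 7,17-diHDPAn-3, a lipid mediator formed from an omega-3 fatty acid. The genes described here are the transcription factor FOXO3 and the genes known for clearing organelles from maturing red cells. They were taken as every row of the count table whose gene symbol was foxo3a, foxo3b, bnip3la, bnip3lb, gabarapl2, ulk1a, ulk1b, xpo7, trim58 or ube2h, ignoring case and allowing the name without its a or b. 9 rows of 32020 met this, and all 9 passed the low-count filter that left 14249 rows for testing. trim58, whose protein is a ubiquitin ligase of late erythroblasts in mammals, matched 0 rows and is not analysed here. There were 4 control libraries, numbered 1 to 4, and 4 treated libraries, numbered 5 to 8. The sources used here name 3 lines together, the AB wild type, Tg(gata1: Dsred) and Tg(CD41:GFP), and do not tie a line, a dose or an age to these libraries. The string gata_1 occurs in the names of all 8 libraries, and 2b occurs in the name of control 4 only; what either stands for is not explained in the labels. The design text describes 2 exposures of embryos, a screen at 1.5 µM lasting from hour 11 to hour 36 after fertilization and doses of 1 to 1.75 µM tried to find the best one, with the lipid dissolved in ethanol. What the control embryos received is not stated in the labels, nor whether libraries of one kind came from different clutches. The p-values therefore rest on how far these samples differ from each other, and that spread can be technical.

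FOXO3 is a forkhead transcription factor that growth factor signalling keeps out of the nucleus through AKT phosphorylation. In erythroblasts of mice it acts with the erythroid factors GATA1 and KLF1 and is needed for genes of autophagy, enucleation and antioxidant defence. BNIP3L, also called NIX, sits in the outer mitochondrial membrane and recruits the autophagosome, and mouse reticulocytes that lack it keep their mitochondria. ULK1 is the kinase that starts autophagy, GABARAPL2 is a member of the ATG8 family conjugated to the autophagosome membrane, XPO7 is a nuclear export receptor linked to nuclear condensation in mammalian erythroblasts, and UBE2H is a ubiquitin-conjugating enzyme that works with the MAEA-containing CTLH ligase. Red cells of zebrafish keep their nucleus, so the enucleation role of XPO7 and TRIM58 is known from mammals.

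The libraries held 2502636 (treated 5) to 4794081 (control 1) counts. The labels name erythrocyte progenitors and erythrocytes as the cell type, but the libraries held RNA of many tissues. The 26 rows of a red cell marker list took 0.449% to 0.979% of counts in controls and 0.394% to 0.925% in treated libraries, with no row at 0 in all libraries. Of the 29 entries of that list, 5 matched no row and are missing from these shares. Muscle markers took 0.208% to 1.95% in controls and 1.18% to 2.61% in treated libraries, and epidermal markers 0.637% to 1.24% and 0.83% to 1.05%. Most of the genes described here are active in many cell types, so their values cannot be assigned to red cells. In whole samples, fewer cells of a type and less RNA per cell cannot be told apart.

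No gene of the group passed the test for a difference between treated and control libraries, and the FOXO3 pair was the closest to it. The comparison asked which transcripts differ after exposure, with edgeR's quasi-likelihood test, and a gene passed at a p of at most 0.05 after Benjamini-Hochberg adjustment over all 14249 genes. 0 of the 9 rows passed in edgeR, and over all genes the share called was 0%. 0 of the 9 rows passed in DESeq2 or limma-voom, where DESeq2 called 0.126% of all genes and gave no adjusted p for 2 of the 9, ulk1a and GABARAPL2. The edgeR adjusted p of the 9 rows lay between 0.642 and 0.993. At an unadjusted p of at most 0.05 edgeR took 1 of the 9, foxo3b, which was lower in treated libraries, beside a background of 3.30% of genes lower and 3.63% higher. 6 rows had lower and 3 higher fitted values, and their median log2 fold change was -0.069, beside a median of -0.0045 over all genes tested, 50.5% of which were lower. Of the 3 higher rows, the second BNIP3L row described below turned to -0.010 with scaling to total counts alone.

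The foxo3b row, 1 of the 2 zebrafish copies of FOXO3, had levels of 118, 119, 111 and 122 CPM in controls 1 to 4, where CPM is the count relative to the library's TMM-scaled total. Its levels in treated 5 to 8 were 99.8, 110.4, 90.8 and 82.9 CPM. All 4 treated libraries lay below all 4 controls, by a margin of under 1 CPM between treated 6 and control 3. Groups without overlap and lower in treated libraries were seen for 2.29% of all genes, and those higher in treated libraries for 2.34%. foxo3b was the 1 row of the 9 without overlap. The group means were 118 ± 4.63 and 96.0 ± 11.8 CPM (SD, n = 4), so the treated mean was 81.6% of the control mean. The log2 fold change was -0.29 ± 0.12 (SE, 95% interval -0.55 to -0.036), with an unadjusted p of 0.0281 and an adjusted p of 0.642 in edgeR. The unadjusted edgeR p was 0.0540 without control 2, 0.0653 without control 4, 0.0645 without treated 7 and 0.0847 without treated 8. With scaling to total counts alone, which skips the TMM step, the groups overlapped: the lowest control stood at 110.9 and the highest treated library at 112.8 CPM. The 4 controls varied by 3.93% (coefficient of variation), where counting error alone gives 4.67%. The 4 treated libraries varied by 12.3%, where counting error gives 5.74%.

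The other copy, foxo3a, had levels of 58.5, 51.6, 56.1 and 62.1 CPM in controls 1 to 4 and of 45.2, 52.1, 51.9 and 33.3 CPM in treated 5 to 8. The groups overlapped: treated 5 and treated 8 lay below every control, and treated 6 and treated 7 lay just above control 2. The means were 57.1 ± 4.41 and 45.6 ± 8.79 CPM (SD, n = 4), a treated mean at 79.9% of the control mean. The log2 fold change was -0.32 ± 0.17 (SE, 95% interval -0.68 to 0.030, edgeR adjusted p = 0.748). It was -0.20 without treated 8, the library with the lowest level of both copies.

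The 2 copies of FOXO3 were set against each other within each library. The log2 ratio of foxo3a to foxo3b counts within a library averaged -1.04 ± 0.11 for controls against -1.08 ± 0.21 for treated libraries (SD, n = 4). The difference of -0.041 had a p of 0.714 in a two-sided exact permutation test, whose smallest p for 4 against 4 libraries is 0.0286 (adjusted p = 0.714 over 3 ratios of rows taken as copies). It was 0.035 without treated 8 and -0.13 without treated 7. Control 4, whose library name differs from those of the other controls, was the highest library for both copies. Without it the log2 fold change was -0.27 for foxo3b and -0.28 for foxo3a. Counting without a stated rule for reads shared between copies leaves each copy's own value uncertain.

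**Figure D1:**
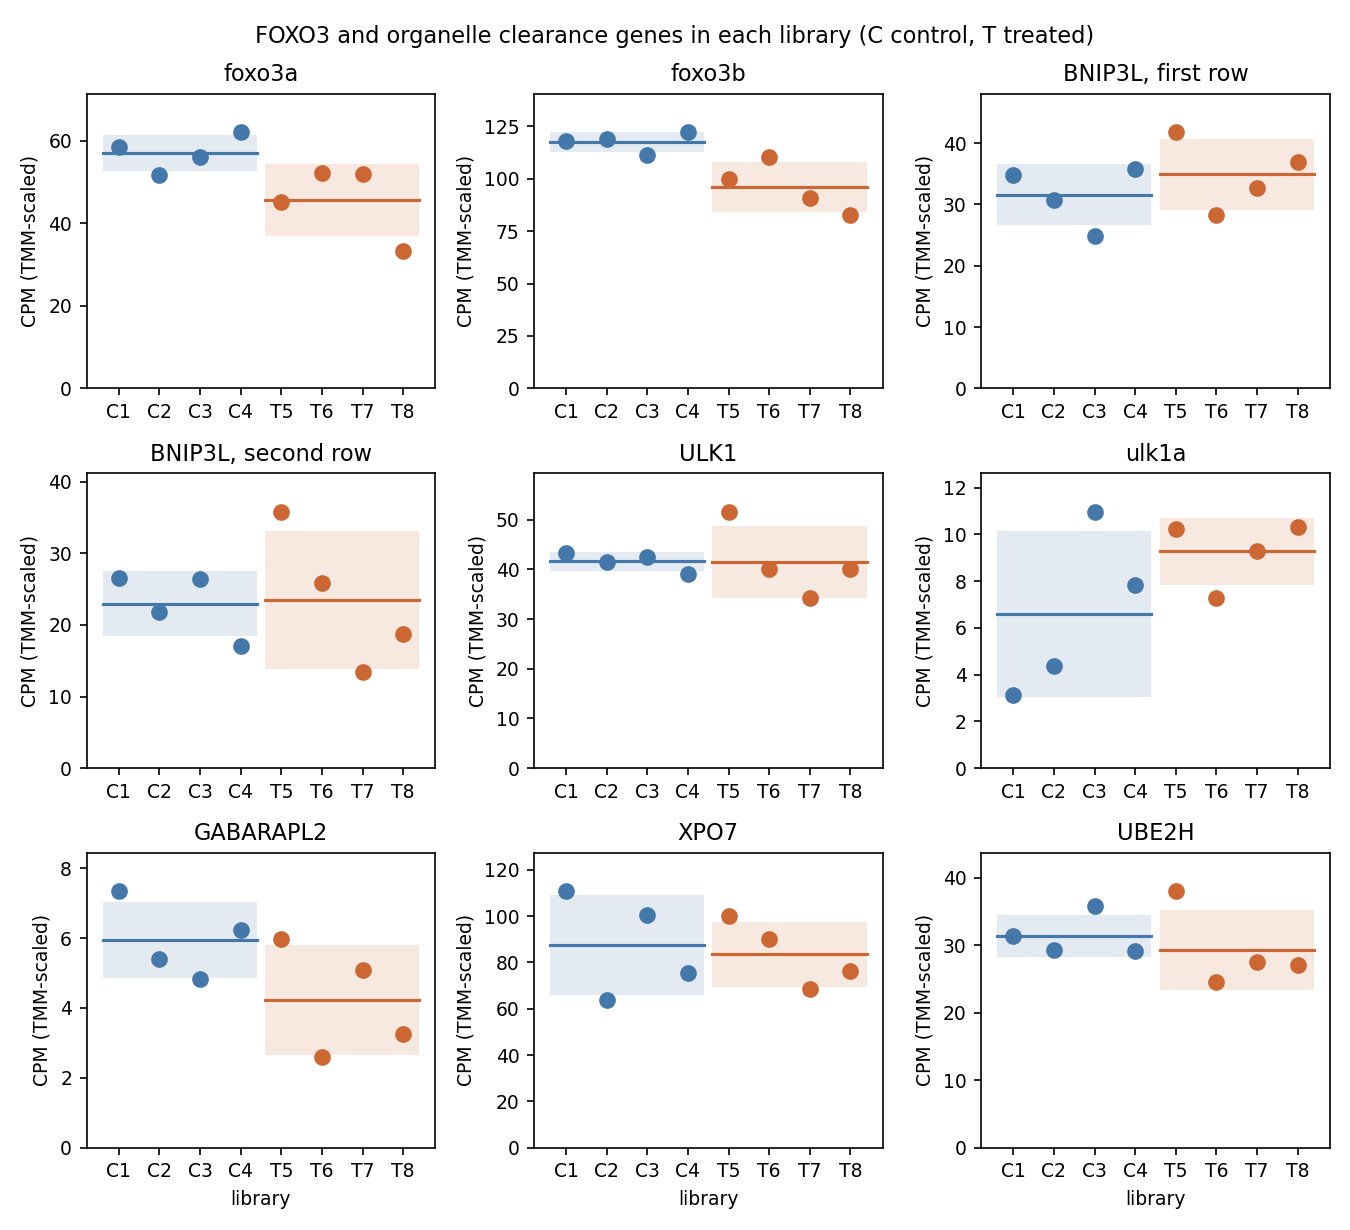
Scaled expression in CPM (y axis, from 0) of the 9 rows in each of the 4 control (C1 to C4, blue) and 4 treated (T5 to T8, orange) libraries; points are libraries, lines are group means and bands are 1 SD. foxo3b is the 1 panel in which all treated libraries, at 82.9 to 110.4 CPM, lie below all controls, at 111 to 122 CPM.

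The mitophagy receptor BNIP3L was represented by 2 rows, and the name table does not say which is bnip3la and which is bnip3lb. The first row, ENSDARG00000025468, had levels of 34.8, 30.8, 24.8 and 35.8 CPM in controls 1 to 4 and of 41.8, 28.2, 32.7 and 36.9 CPM in treated 5 to 8. Treated 5 and treated 8 lay above every control and the groups overlapped. Its means of 31.6 ± 4.97 and 34.9 ± 5.80 CPM (SD, n = 4) gave a log2 fold change of 0.14 ± 0.19 (SE, 95% interval -0.27 to 0.54, edgeR adjusted p = 0.925). The value was 0.039 without control 3 and 0.043 without treated 5, and it was 0.22 without treated 6 and 0.20 without control 4.

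The second row, ENSDARG00000028067, had levels of 26.6, 21.8, 26.4 and 17.1 CPM in controls 1 to 4 and of 35.8, 25.9, 13.5 and 18.7 CPM in treated 5 to 8. Treated 5 was the highest library and treated 7 the lowest, so the treated group spanned the controls. Its means of 23.0 ± 4.52 and 23.5 ± 9.68 CPM (SD, n = 4) gave a log2 fold change of 0.019 ± 0.27 (SE, 95% interval -0.57 to 0.60, edgeR adjusted p = 0.992), a value that was -0.24 without treated 5 and 0.21 without treated 7. Its treated libraries varied by 41.2%, where counting error gives 12.1%.

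The 2 BNIP3L rows did not follow each other across libraries. The log2 ratio of the first row to the second ran from -0.090 in control 3 to 1.27 in treated 7. It averaged 0.46 ± 0.47 for controls against 0.65 ± 0.56 for treated libraries (SD, n = 4), a difference of 0.18 with an exact permutation p of 0.686 (adjusted p = 0.714), which was -0.00079 without control 3, -0.023 without treated 7 and 0.38 without control 4.

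Of the genes that start and build the autophagosome, the row named ULK1 stood at 43.4, 41.6, 42.6 and 39.0 CPM in controls 1 to 4 and at 51.6, 40.2, 34.2 and 40.1 CPM in treated 5 to 8. Treated 5 was above and treated 7 below every control. The means were nearly equal, at 41.6 ± 1.90 and 41.5 ± 7.30 CPM (SD, n = 4), with a log2 change of -0.0092 ± 0.17 (SE, edgeR adjusted p = 0.993), and the 95% interval of -0.36 to 0.34 spans 0.778-fold to 1.27-fold.

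The name table does not say whether the ULK1 row is ulk1b, the copy that would pair with ulk1a. The row named ulk1a was counted at 15 to 38 reads per library. Its levels were 3.14, 4.36, 11.0 and 7.85 CPM in controls 1 to 4 and 10.2, 7.25, 9.29 and 10.3 CPM in treated 5 to 8. Controls 1 and 2 were the lowest libraries and control 3 the highest. The log2 fold change was 0.51 ± 0.38 (SE, 95% interval -0.29 to 1.31, edgeR adjusted p = 0.840), and was 0.27 without control 1 and 0.85 without control 3. The log2 ratio of ULK1 to ulk1a averaged 2.80 ± 0.83 for controls against 2.14 ± 0.28 for treated libraries (SD, n = 4, difference -0.66, exact permutation p = 0.286, adjusted p = 0.714). That difference was -0.34 without control 1.

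GABARAPL2 was the row with the fewest counts of the 9, at 10 to 35 reads per library. It stood at 7.33, 5.39, 4.84 and 6.23 CPM in controls 1 to 4 and at 5.97, 2.59, 5.10 and 3.25 CPM in treated 5 to 8. Treated 6 and treated 8 lay below every control and treated 5 and treated 7 within their range. The log2 fold change was -0.52 ± 0.41 (SE, 95% interval -1.39 to 0.34, edgeR adjusted p = 0.850), and was -0.34 without treated 6.

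Of the genes linked to the nucleus and to protein turnover, XPO7 stood at 111, 63.9, 100.3 and 75.3 CPM in controls 1 to 4 and at 99.8, 89.9, 68.4 and 76.2 CPM in treated 5 to 8. Every treated library lay within the range of the controls. The means were 87.5 ± 21.7 and 83.6 ± 14.0 CPM (SD, n = 4), with a log2 change of -0.069 ± 0.18 (SE, 95% interval -0.45 to 0.31, edgeR adjusted p = 0.961). The sign turned without control 1 (0.064) and without treated 7 (0.015).

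UBE2H stood at 31.4, 29.3, 35.8 and 29.1 CPM in controls 1 to 4 and at 38.0, 24.6, 27.6 and 27.1 CPM in treated 5 to 8. Treated 5 was the highest library, and the other 3 treated libraries lay below every control. The log2 fold change was -0.11 ± 0.19 (SE, 95% interval -0.51 to 0.30, edgeR adjusted p = 0.944), and was -0.25 without treated 5, -0.032 without treated 6 and -0.040 without control 3.

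**Figure D2:**
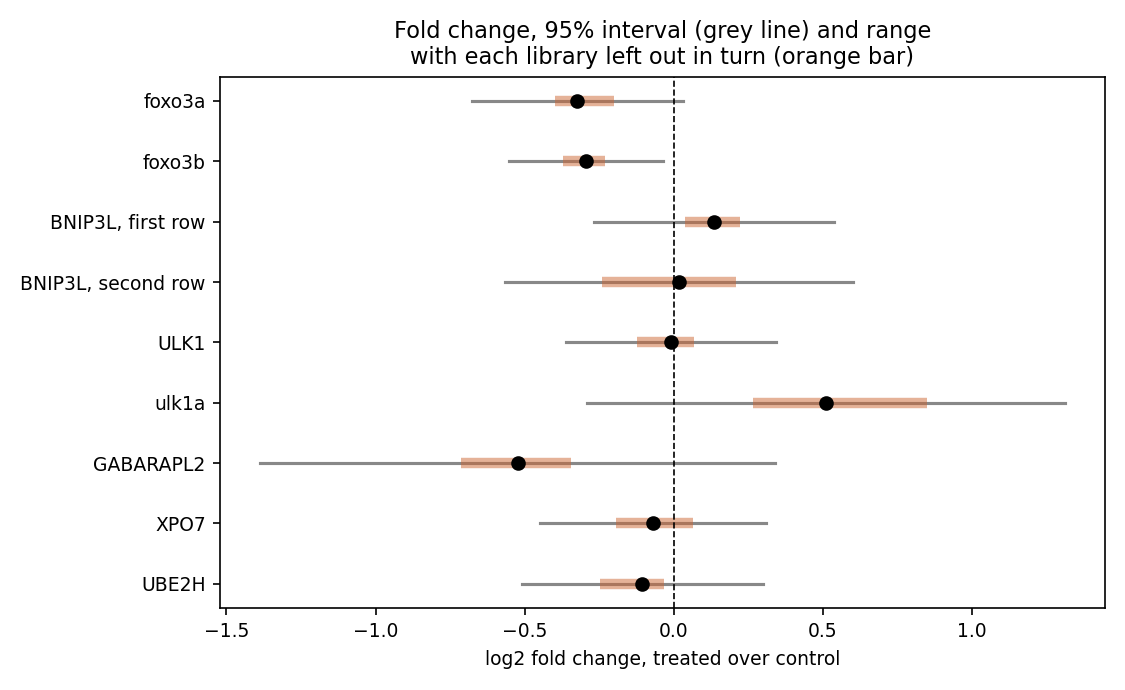
Log2 fold change of treated over control libraries (x axis) for the 9 rows: points are edgeR estimates, grey lines their 95% intervals and orange bars the range of estimates with each of the 8 libraries left out in turn. The interval of foxo3b, -0.55 to -0.036, is the 1 that does not hold 0 before adjustment, and the longest intervals belong to GABARAPL2 and ulk1a, the rows with the fewest counts.

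4 of the 9 rows were highest in the 3 libraries with the most red cell markers, which also had the largest shares of myeloid markers. The share of all genes with the same 3 highest libraries was not computed, so this count only describes the rows. Control 1, control 3 and treated 5 held the largest shares of red cell markers, at 0.851%, 0.979% and 0.925% of counts, and the other libraries held 0.394% to 0.586%. Their myeloid marker shares were 0.0179%, 0.0175% and 0.0186%, and those of the other libraries 0.0115% to 0.0163%. Averaged over the 10 tested myeloid genes, however, log2 CPM minus the gene mean was 0.078 in control 4 and 0.054 in control 3. The match with myeloid markers therefore depends on the measure. Whether the ranking is particular to red cell markers was not tested. The same 3 libraries were the highest for alas2, which starts heme production in erythroid cells, at 469, 598 and 535 CPM, with 200.3 to 361 CPM in the others. alas2, and gata1a, klf1, EPOR and SLC4A1 named below, are themselves on the red cell marker list. Their match to its shares is therefore partly built in. Control 1, control 3 and treated 5 were also the 3 highest for XPO7, UBE2H, ULK1 and the second BNIP3L row. In XPO7 they stood at 111, 100.3 and 99.8 CPM and the others at 63.9 to 89.9 CPM. They were not the 3 highest for foxo3a, foxo3b, the first BNIP3L row, GABARAPL2 or ulk1a, and foxo3b was highest in control 4, the control with the smallest red cell share (0.449%). The red cell regulator gata1a stood at 22.6, 15.1, 22.9 and 9.0 CPM in controls 1 to 4 and at 39.2, 6.74, 2.4 and 5.15 CPM in treated 5 to 8, and its 3 highest libraries were the same. For klf1 they were treated 5, control 1 and treated 6 (35.8, 27.9 and 21.8 CPM), with control 3 at 21.6 CPM. EPOR, the erythropoietin receptor, was highest in control 3, control 1 and treated 7 (32.6, 25.4 and 20.4 CPM). SLC4A1, the red cell anion exchanger, ran from 387 CPM in treated 8 to 1062 CPM in control 3. A second row named SLC4A1 was at most 5.16 CPM and was not tested.

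**Figure D3:**
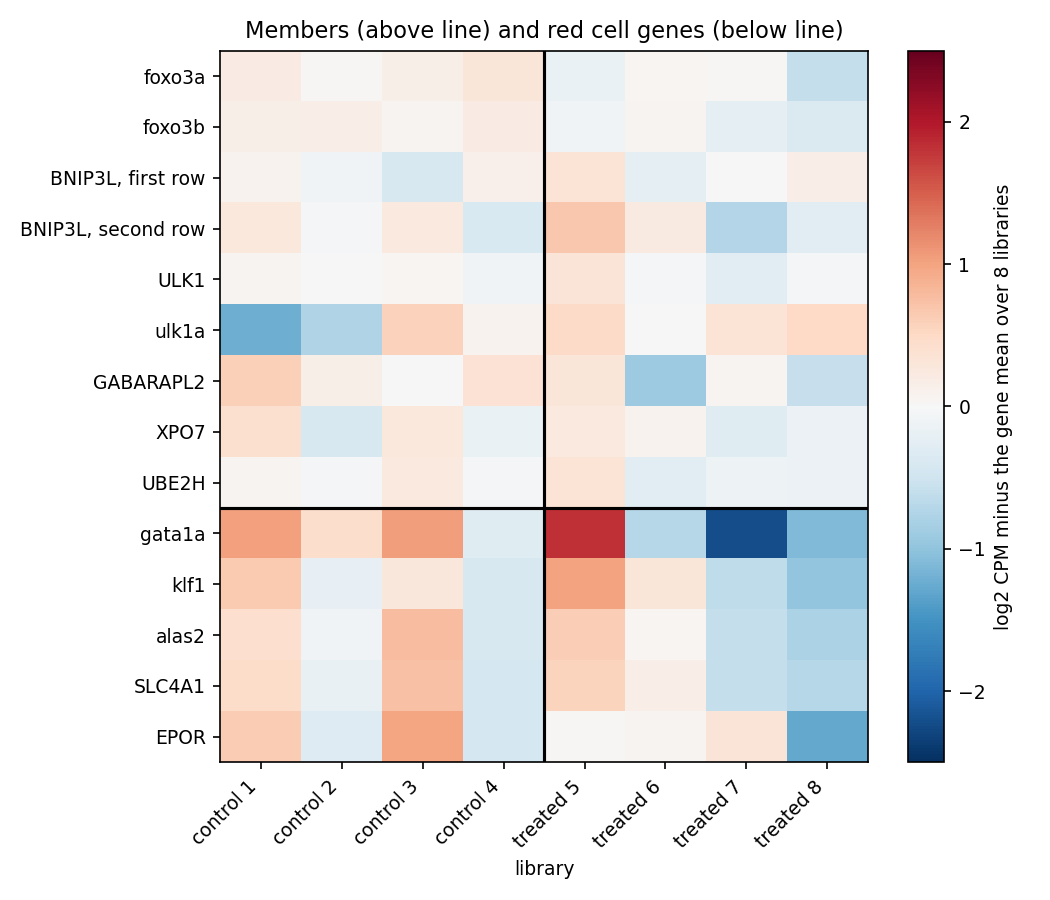
Log2 CPM of each gene minus its mean over the 8 libraries (colour) for the 9 rows above the horizontal line and 5 red cell genes below it, with controls left and treated libraries right of the vertical line. XPO7, ULK1, UBE2H and the second BNIP3L row share their highest libraries, control 1, control 3 and treated 5, with alas2, whereas foxo3a and foxo3b do not.

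The genes whose pattern over the 8 libraries was most like each row were ranked among 10671 named genes by Pearson's correlation of log2 CPM, as a description with no test. For a row, between 12 and 62 genes had a correlation over 0.9, and all share the same libraries and depths. For XPO7 the nearest was GFI1B, a transcriptional repressor active in the erythroid and megakaryocyte lineages (0.97, and at least 0.96 without any 1 library). FEZF2, a forebrain transcription factor, followed (0.97). For the second BNIP3L row they were plk1, a mitotic kinase (0.97), and PPOX, an enzyme of heme synthesis (0.97). For ULK1 they were HPF1, a cofactor of PARP1 (0.97), and ncoa4, the receptor for autophagy of ferritin (0.94, and 0.88 to 0.98 without any 1 library).

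For foxo3b the nearest was SCML4, a Polycomb group protein (0.97), and for foxo3a they were GRIN2A, a glutamate receptor subunit (0.98), and PIP5K1C, a lipid kinase (0.97). With 1 library left out, the foxo3a values fell as low as 0.90 for GRIN2A and 0.87 for PIP5K1C. Within the group, foxo3a and foxo3b correlated at 0.84 and the second BNIP3L row and ULK1 at 0.93, while the 2 BNIP3L rows correlated at 0.05. The nearest genes of UBE2H were maff, a small MAF factor (0.99), and SEMA6D, a semaphorin (0.97). Those of the first BNIP3L row were otud1, a deubiquitinase, and NANS, an enzyme of sialic acid synthesis (0.97 each). GABARAPL2 was nearest to MIDN and the hypothalamic factor OTP (0.97 and 0.96), and ulk1a to irf2a and ANKRD27 (0.965 and 0.96).

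Around these rows, 255 other tested genes of 9 related lists were compared in the same fit, and 0 passed in either direction. Before adjustment, 17 genes were lower and 2 higher in treated libraries at a p of at most 0.05, or 6.67% and 0.784%, where all genes gave 3.30% and 3.63%. The lower count ran from 12 (without control 1) to 18 (without treated 5) with 1 library left out. Under the other alternatives it ran from 13 to 21. 59.2% of the 255 had lower fitted values, and their median log2 fold change was -0.068. The 2 higher genes were BECN1 and XPO4, and there were 4 higher genes without control 1, 8 without control 3, 5 without control 4, and 4 without treated 7 or treated 8. The lists were written with earlier results of these data known, so these counts describe the lists and test nothing.

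Among other FOXO factors and the genes that regulate them, 3 of 34 were lower at an unadjusted p of at most 0.05 and 0 higher, with a median of -0.096. They were 2 rows for the export receptor XPO1, which carries phosphorylated FOXO proteins out of the nucleus, and FOXO4. The row named XPO1 stood at 160.0, 123, 155 and 151 CPM in controls 1 to 4 and at 98.1, 84.5, 92.6 and 109 CPM in treated 5 to 8. Its groups did not overlap, and its log2 fold change was -0.62 ± 0.13 (SE), with an adjusted p of 0.324 in edgeR and 0.00826 in DESeq2, and of up to 0.773 over the alternatives. DESeq2 called 18 of all 14249 genes, and on simulated counts it called 17 of 14049 unchanged genes. The row xpo1a had -0.41 ± 0.15 (SE) and was -0.26 without control 1. FOXO4 stood at 82.0 ± 19.0 and 64.2 ± 5.28 CPM (SD, n = 4), with -0.35, and -0.18 without control 3. 2 rows named FOXO1 had 0.54 and -0.36, foxo6a -0.32 and foxo6b -0.43.

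Among genes known as FOXO targets, 4 of 40 were lower at that threshold and 0 higher, with a median of -0.14. CDKN1B, the cell cycle inhibitor p27, stood at 66.0, 62.4, 67.1 and 63.7 CPM in controls 1 to 4 and at 55.0, 37.6, 56.1 and 44.2 CPM in treated 5 to 8. Its groups did not overlap (log2 fold change -0.43 ± 0.16 SE, edgeR adjusted p = 0.597). GADD45B, a stress sensor, and BTG1, an inhibitor of proliferation, had -0.44 and -0.27, with GADD45B at -0.29 without control 1. The fourth was the pocket protein RBL2 with -0.57. A second row named GADD45B went the other way at 0.15, and a second row named CDKN1B had -0.30, neither at an unadjusted p of at most 0.05. The antioxidant enzymes SOD2 and CAT, also FOXO targets, had -0.31 and 0.41, neither at an unadjusted p under 0.05. RBL2, SOD2, CAT, XPO4, MAEA, FOXO1 and the foxo6 rows were chosen after their values were seen. So were the second GADD45B and CDKN1B rows and, named below, the 4 ATG8 family rows and the further RAB7A rows. The same holds for atg4db, the second LDB1 row, ARMC8, RANBP10, MKLN1 and RMND5B, also named below.

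The mitophagy receptors and cargo adaptors other than BNIP3L held 3 of 23 genes lower at that threshold and 0 higher. 13 of the 23 had higher fitted values, and the list's median was 0.050 while its mean was -0.082. nbr1b, an autophagy adaptor that binds ubiquitin, stood at 48.2, 37.2, 57.1 and 46.9 CPM in controls 1 to 4 and at 31.6, 31.1, 24.6 and 29.0 CPM in treated 5 to 8. Its groups did not overlap (log2 fold change -0.70 ± 0.18 SE, edgeR adjusted p = 0.434). The related adaptor SQSTM1, also called p62, stood at 59.4 ± 17.8 and 37.4 ± 9.08 CPM (SD, n = 4) with -0.67 ± 0.22 (SE, edgeR adjusted p = 0.563), with 84.4 CPM in control 2. FKBP8, a mitochondrial receptor for autophagy, had -0.77 at 10 to 63 reads per library.

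Autophagy initiation genes other than ULK1 held 1 of 25 higher and 1 lower, with a median of -0.15. BECN1, a subunit of the lipid kinase complex that nucleates the autophagosome, stood at 7.75, 6.93, 10.0 and 10.6 CPM in controls 1 to 4 and at 22.2, 16.8, 12.0 and 12.5 CPM in treated 5 to 8. Its groups did not overlap (log2 fold change 0.84 ± 0.28 SE, edgeR adjusted p = 0.563), at 27 to 65 reads per library. ATG14, which places that complex at the membrane, was the lower gene with -0.50, and WDR45B had -0.44 with an unadjusted p over 0.05. The conjugation genes held 1 of 14 lower and 0 higher, with a median of -0.17. The lower gene was ATG7, the activating enzyme of the ATG8 and ATG12 pathways, with -0.97 at 6.96 ± 2.68 and 3.55 ± 0.647 CPM (SD, n = 4). ATG7 had only 8 to 39 reads per library, and DESeq2 gave it no adjusted p. ATG3 had -0.71 at 10 to 44 reads per library and ATG4D -0.51 at 17 to 62 reads, neither at an unadjusted p of at most 0.05. ATG4D was -0.30 without treated 8, and the row named atg4db had 0.025. The 4 other ATG8 family rows of that list, gabarapa, gabarapb, MAP1LC3A and MAP1LC3B, had -0.32, -0.18, -0.19 and -0.035. The median of the initiation genes was -0.28 without treated 6, and that of the conjugation genes was -0.084 without treated 7 and -0.097 without treated 8.

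The genes of autophagosome fusion and the lysosome held 1 of 25 lower and 0 higher (median -0.019). The lower gene was VPS18, a tethering subunit, with -0.66. The lysosomal regulator TFE3 had -0.46 and 1 row of the late endosome GTPase RAB7A had -0.56, neither at an unadjusted p of at most 0.05. That RAB7A row had 8 to 31 reads per library, and the further rows named RAB7A had -0.047 and 0.027. TFE3 was -0.24 without control 3. A list of CTLH ligase subunits, other ubiquitin ligases, other ubiquitin-conjugating enzymes and further ubiquitin genes held 1 of 33 lower and 0 higher (median -0.068, and -0.15 without treated 8). Fitted values were lower for 21 and higher for 12 of the 33. YPEL5 and RANBP9, both CTLH subunits, had -0.54 and -0.46, the polyubiquitin gene UBB -0.19 and the CTLH subunit MAEA -0.17. The CTLH subunits ARMC8, RANBP10, MKLN1 and RMND5B went the other way, with 0.35, 0.083, 0.069 and 0.050. Of these, only YPEL5 was at an unadjusted p of at most 0.05. RANBP9 was -0.28 without treated 7.

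The list of nuclear condensation, export and enucleation genes, which includes XPO7, held 3 of 37 lower and 1 higher (median -0.0047, mean 0.0099). Beside the 2 XPO1 rows, the histone deacetylase HDAC5 had -0.59 ± 0.18 (SE, edgeR adjusted p = 0.562), and the nuclear transport receptor XPO4 had 0.56. Among erythroid regulators 2 of 28 were lower and 0 higher (median -0.17). These were LDB1, a bridging factor of the GATA1 complex, and the survival factor BCL2L1, with -0.32 and -0.36, and CDK6, a cell cycle kinase, had 0.26, or 0.18 without treated 7. The median of the erythroid regulators was -0.081 without control 1, -0.085 without treated 7, -0.090 without control 3, -0.10 without treated 8 and -0.25 without treated 5.

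**Figure D4:**
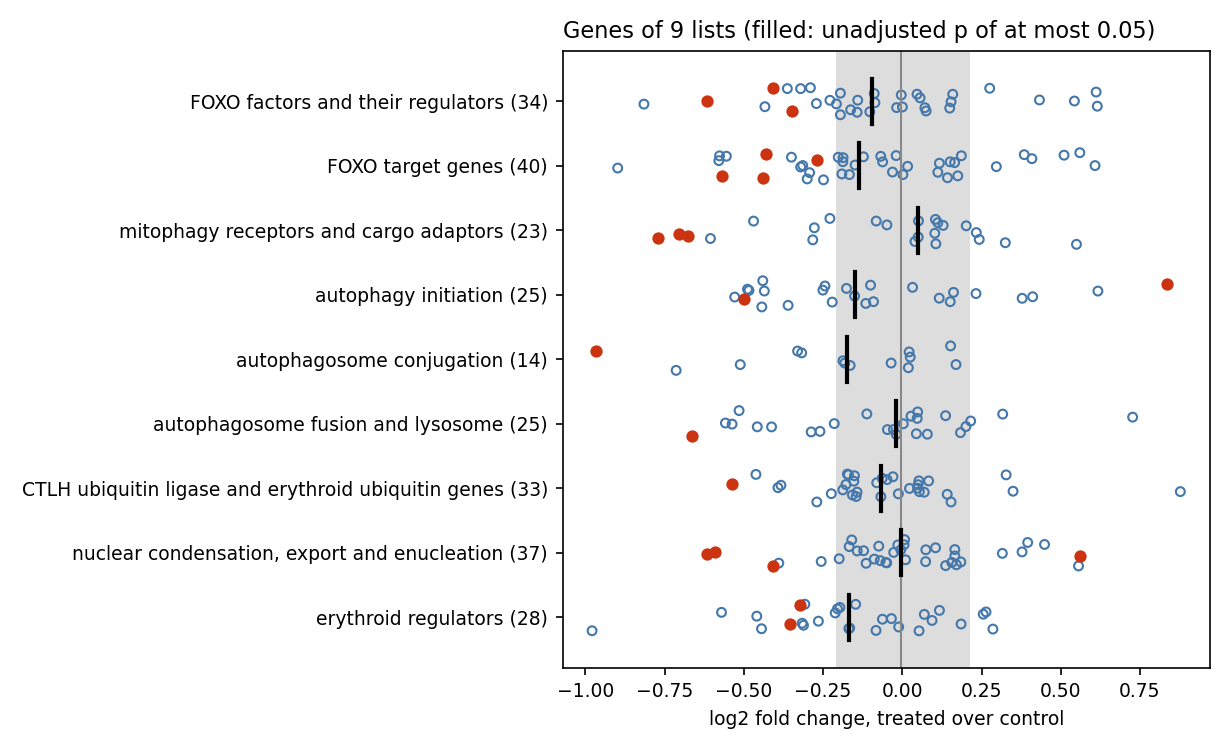
Log2 fold change of treated over control libraries (x axis) of each tested gene of 9 lists (rows, with the number of genes); filled points have an unadjusted p of at most 0.05, black bars are list medians, and the grey band is the interquartile range (-0.21 to 0.21) of all 14249 genes around their median. 1 filled point each of autophagy initiation (BECN1) and the nuclear list (XPO4) lies above 0 and the other filled points lie below.

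In the same fit 0 genes of the 9 marker lists passed, with a lowest adjusted p of 0.0768 in edgeR, and the part of other tissues in the values above was not tested. 20 of 20 muscle genes, 9 of 9 lens genes, 10 of 12 pigment cell genes and 15 of 16 endothelial genes had higher fitted values in treated libraries. Of these higher genes, 9 pigment cell, 10 endothelial, 5 lens and 1 muscle gene reached the 0.05 threshold in edgeR before adjustment. Over all genes, 3.63% were higher at that threshold. 2 neural genes and 1 epidermal gene reached it as lower, and 0 red cell, myeloid or yolk and liver genes reached it. No test was made of these counts. Pigment cell markers took 0.0127% to 0.0187% of counts in controls and 0.0235% to 0.0450% in treated libraries, without overlap, whereas the muscle shares given above overlapped. The lowest muscle share, 0.208%, was that of control 1, and the next lowest control, control 3, held 0.803%. Lens shares overlapped too, at 0.00208% to 0.0135% in controls and 0.00978% to 0.0210% in treated libraries. So did endothelial shares, at 0.0161% to 0.0226% and 0.0216% to 0.0343%. Epidermal markers had 7 genes higher and 7 lower. Neural markers, whose shares were 0.207% to 0.235% in controls and 0.192% to 0.224% in treated libraries, had lower fitted values for 10 of 15 genes. 22 of 25 red cell genes, 7 of 10 myeloid genes and 7 of 7 yolk and liver genes had lower fitted values.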

How the data were processed

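The authors deposited the raw counts per gene of the 8 libraries as 1 table, made from total RNA with a stranded kit for low input. Per the submitters' processing notes, the tools were DESeq2 1.22.1, StringTie 1.3.3b, HISAT2 2.1.0, Trim Galore 0.5.0 and CASAVA 1.8.2 and the build was GRCz11, without roles. Not given in the sources used here are the annotation release, the strand setting and the handling of shared reads. Counts of near-identical, overlapping or antisense genes are therefore uncertain. A table of Ensembl IDs and symbols named 28975 of 32020 rows. No sequences or coordinates are printed, because no genome of that build was used. The number of sample columns not used was 0.

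TMM scaling and the filterByExpr filter came from edgeR 4.0.16 in R 4.3.3. Groups were compared by its quasi-likelihood F-test, without covariates and with dispersions estimated robustly. Levels are TMM-scaled CPM, and fold changes are treated over control. Standard errors and 95% intervals were derived from the F statistic and its degrees of freedom. Correlations used log2 CPM with a prior count of 2. Ratios of copies added 0.5 to each count. Counting error is that of reads, which after PCR are not independent molecules. Over all genes tested, log2 fold changes had a median standard error of 0.28. On simulated counts of 14249 genes, edgeR recovered 2 of 50 changes of 1.5-fold and 22 of 50 of 2-fold, with 2 false calls among 14049 unchanged genes. DESeq2 made 17 false calls among the same unchanged genes.

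The members, the 9 pathway lists and the 9 marker lists were chosen with earlier results of these data known. Of 285 pathway entries, 69 matched after removal of an a or b suffix and 11 matched none. Genes named beside the members were the 3 of smallest p in each pathway list, gata1a, klf1, alas2, SLC4A1 and EPOR, and the 2 genes most correlated with each member that had a proper symbol and 5 CPM or more on average. Exceptions are stated, and 1 gene that the rule takes is not reported here. In a chi-square comparison of each pair of libraries, over genes with at least 10 counts, the statistic per degree of freedom was 6.69 to 20.9, so all pairs differed by more than sampling noise. Alternatives were RLE size factors, scaling to total counts, no low-count filter, a filter at a mean of 5 CPM, DESeq2 1.42.0, limma-voom (limma 3.58.1) and each library left out in turn. Ratios and figures used Python 3.11.15, scipy 1.17.1 and matplotlib 3.10.9.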

Additional observations from a re-analysis of the deposited data

Results flagged for a closer look

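In 5 of 104 groups of 4 libraries, 1 library stood far from the other 3 by Dixon's criterion. Chance gives such a library in about 1 of 20 independent groups. The groups here share the same 8 libraries and some genes, so the number found cannot be judged against that rate. Treated 5 had a gata1a level of 39.2 CPM, where the other treated libraries had 2.4 to 6.74 CPM. Control 2 had a foxo3a to foxo3b log2 ratio of -1.20, where the other controls had -1.01 to -0.98. Treated 5 had an endothelial marker share of 0.0216%, where the other treated libraries had 0.0334% to 0.0343%. Treated 8, the library with the lowest foxo3a and foxo3b levels, had an epidermal marker share of 1.05% (others 0.83% to 0.861%) and a pigment cell marker share of 0.0450% (others 0.0235% to 0.0257%). The part of these libraries in the FOXO3 values was not tested.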

How the results depend on the processing

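No alternative called any of the 9 FOXO3 and organelle clearance rows. Over all genes the count called was 0 with TMM, RLE or total-count scaling, 18 in DESeq2, 3 in limma-voom, 4 with no low-count filter, 2 with a filter at a mean of 5 CPM, and 0 to 1 with 1 library left out. The foxo3b log2 fold change kept its sign under all 14 alternatives, from -0.37 to -0.23, with an unadjusted p of 0.00968 to 0.0847 and an adjusted p of 0.478 to 0.902. That of foxo3a ran from -0.40 to -0.20. The sign of the second BNIP3L row turned with total-count scaling (-0.010) and limma-voom (-0.070), and it ran from -0.24 to 0.21 with 1 library left out. With 1 library left out, XPO7 ran from -0.19 to 0.064, ULK1 from -0.12 to 0.070 and klf1 from -0.48 to 0.21. The log2 fold change of gata1a was -0.46 with all libraries (edgeR adjusted p = 0.947). It was -1.85 without treated 5 and -0.097 without treated 7, and no alternative gave gata1a an adjusted p under 0.452. The median of mitophagy receptors ran, with 1 library left out, from -0.043 (without control 4) to 0.066, and from 0.025 to 0.091 under the other alternatives. That of CTLH and ubiquitin genes ran from -0.15 (without treated 8) to -0.061. With 1 library left out, the median of initiation genes ran from -0.28 to -0.13, of conjugation genes from -0.22 to -0.084, of erythroid regulators from -0.25 to -0.081, of fusion and lysosome genes from -0.073 to -0.00024 and of the nuclear list from -0.036 to 0.020. The ratio difference of foxo3a to foxo3b ran from -0.13 to 0.035 and that of the BNIP3L rows from -0.023 to 0.38. The count of higher pathway genes, recomputed under alternatives chosen after seeing the data, was 6 in limma-voom. No paired analysis was possible because the groups share no library number. ulk1a and GABARAPL2 had 10 to 38 reads per library, and the ulk1a controls varied by 53.8%, where counting error gives 21.5%. Changes of 1.5-fold, the smallest simulated, were mostly not detectable: edgeR recovered 4% of them, in genes drawn from all those tested. The smaller sizes seen for foxo3a and foxo3b were not simulated. Nor were genes as precise as foxo3b looked at apart (SE 0.12, beside a median of 0.28 over all genes). The simulation therefore cannot say whether changes of that size in these 2 rows would be detected.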
